A study of Arabidopsis thaliana with 9 samples.

Results

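The genes described here make and take apart tetrapyrroles, the ring-shaped pigments that include chlorophyll, heme and the bilin of the phytochrome photoreceptors. They are 35 genes of the 32678 listed in the deposited files, chosen by gene identifier for their known place in the pathway from glutamyl-tRNA to chlorophyll, heme and bilin, or in chlorophyll breakdown. The choice was made with earlier results of these data known, so the shares of the set given below are descriptions. The 3 protochlorophyllide oxidoreductase genes (PORA, PORB and PORC) were left out of the set. All 35 had a value in every library and all 35 passed the filter on low values.

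Polyadenylated RNA was sequenced from whole Arabidopsis thaliana seedlings of the Col-0 accession, 5 days old and kept in constant white light of 14.59 μmol per square metre and second. There were 3 genotypes with 3 libraries each (n = 3 throughout). Col is the wild type, and csu5-1 and csu5-3 are mutants of COP1 SUPPRESSOR 5, named for COP1, a ubiquitin ligase that holds back light-driven seedling development. A missense mutation is named in the series title without the allele that carries it. The labels also do not say whether the 3 libraries of a genotype came from separate cultures, so the p-values measure the spread between these libraries, which may be technical. Levels are given in FPKM, fragments per kilobase of gene scaled to sequencing depth, read as such from the deposited values, and can be compared between genes. Differences are log2 folds of log2(FPKM + 0.5) after scaling, with their standard error, from limma fitted to the 19329 genes that reached 1 FPKM in 3 or more of the libraries. A gene "rose" or "fell" where the Benjamini-Hochberg adjusted p was below 0.01 and the fold above 1.5, the thresholds stated by the series.

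The estimated depth was 37.3 to 43.1 M counted reads per library. The first principal component held 66.9% of the variance and set the 3 csu5-1 libraries apart from the other 6. Published work outside the labels places csu5 in WRKY32 (AT4G30935), a transcription factor, an identity not checked here. WRKY32 stood at 8.48 to 11.1 FPKM in Col, 7.96 to 8.22 in csu5-1 and 3.65 to 4.58 in csu5-3, with log2 folds against Col of −0.18 ± 0.12 (adjusted p = 0.21) in csu5-1 and −1.20 ± 0.12 (adjusted p = 5.7e-04) in csu5-3. The 6 markers of green cotyledon and leaf cells summed to 11830 to 12660 FPKM in Col, 10140 to 10340 in csu5-1 and 11670 to 12380 in csu5-3, and none was at 0. The lower sum in csu5-1 lies mostly in RBCS1A (−0.40 ± 0.08), and SBPASE (−0.24 ± 0.05) was also lower in all 3 csu5-1 libraries than in Col. RCA (0.45 ± 0.06) and GLDP1 (0.39 ± 0.06) were higher in all 3, and none of the 6 passed both thresholds. The 8 root markers summed to 2012 to 2237 FPKM in Col, 2418 to 2460 in csu5-1 and 2340 to 2431 in csu5-3, most of it PYK10. In csu5-1, PRP3, EXPA7 and LRX1 fell, while PYK10 (0.29 ± 0.06) and CASP1 (0.43 ± 0.09) were above Col in all 3 libraries and SCR had 0.23 ± 0.07, all under the fold threshold. COBL9 (−0.46 ± 0.15), below Col in all 3 libraries, and PHT1;1 (−0.17 ± 0.14) leaned down and were not called. The 5 seed markers summed to 13.17 to 18.0 FPKM in Col, 6.84 to 12.69 in csu5-1 and 9.28 to 11.29 in csu5-3, so both mutants lay below Col. The 4 that were tested had negative log2 folds in both mutants, with medians of −0.47 in csu5-1 and −0.45 in csu5-3, and none was called. The samples are bulk seedlings, so fewer cells of a type and less RNA per cell cannot be told apart, and the part of these shifts in the results below was not tested.

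Plants start tetrapyrrole synthesis in the plastid by reducing glutamate bound to its tRNA, the step thought to set the rate of the whole pathway. The common path ends at protoporphyrin, where a magnesium chelatase directs the ring to chlorophyll and an iron chelatase directs it to heme and bilin. Free intermediates are toxic in light, so supply is matched to the chlorophyll-binding proteins of young green tissue. In breakdown, chlorophyll b is first turned into chlorophyll a, then magnesium and the phytol tail are removed and the ring is opened.

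In csu5-1 seedlings 6 of the 35 genes rose and 2 fell against Col, together 22.9%, where 16.2% of all tested genes were called. Those that rose were HEMA1, CHLH, CHLI2, GUN4, CAO and CLH1, and those that fell were GSA1 and NYC1. The 6 that rose are 17.1% of the 35, where 8.31% of all 19329 tested genes were called higher in this comparison. The 2 that fell are 5.71%, a share near the 7.86% of all tested genes called lower. At the same adjusted p but with any fold, 15 of the 35 were higher (42.9%, against 17.5% of all tested genes) and 7 were lower (20%, against 18.5%). At an unadjusted p below 0.05, 17 were higher and 7 lower, together 68.6% against 55.9% of all tested genes. Over all tested genes 1606 were called higher and 1519 lower, and without scaling 1313 and 1962. The set is more abundant than the usual tested gene, with a median level of 83.5 FPKM against 12.2, and small differences are easier to detect at high levels. Its median log2 fold in csu5-1 was 0.18, where the median over all tested genes was 0.00.

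In csu5-3 seedlings 0 of the 35 genes were called against the same Col libraries by limma, where 0.248% of all tested genes were called. At the same adjusted p with any fold there were 0 too, where 0.243% of all tested genes were higher and 0.352% lower. At an unadjusted p below 0.05, 1 was higher and 6 were lower, together 20% of the set, where 22% of all tested genes had such a p. The 95% interval of the fold lay within 1.5-fold of no change for all 35 genes. Both mutants were compared with the same 3 Col libraries, so errors in those libraries enter both comparisons.

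**Figure D1:**
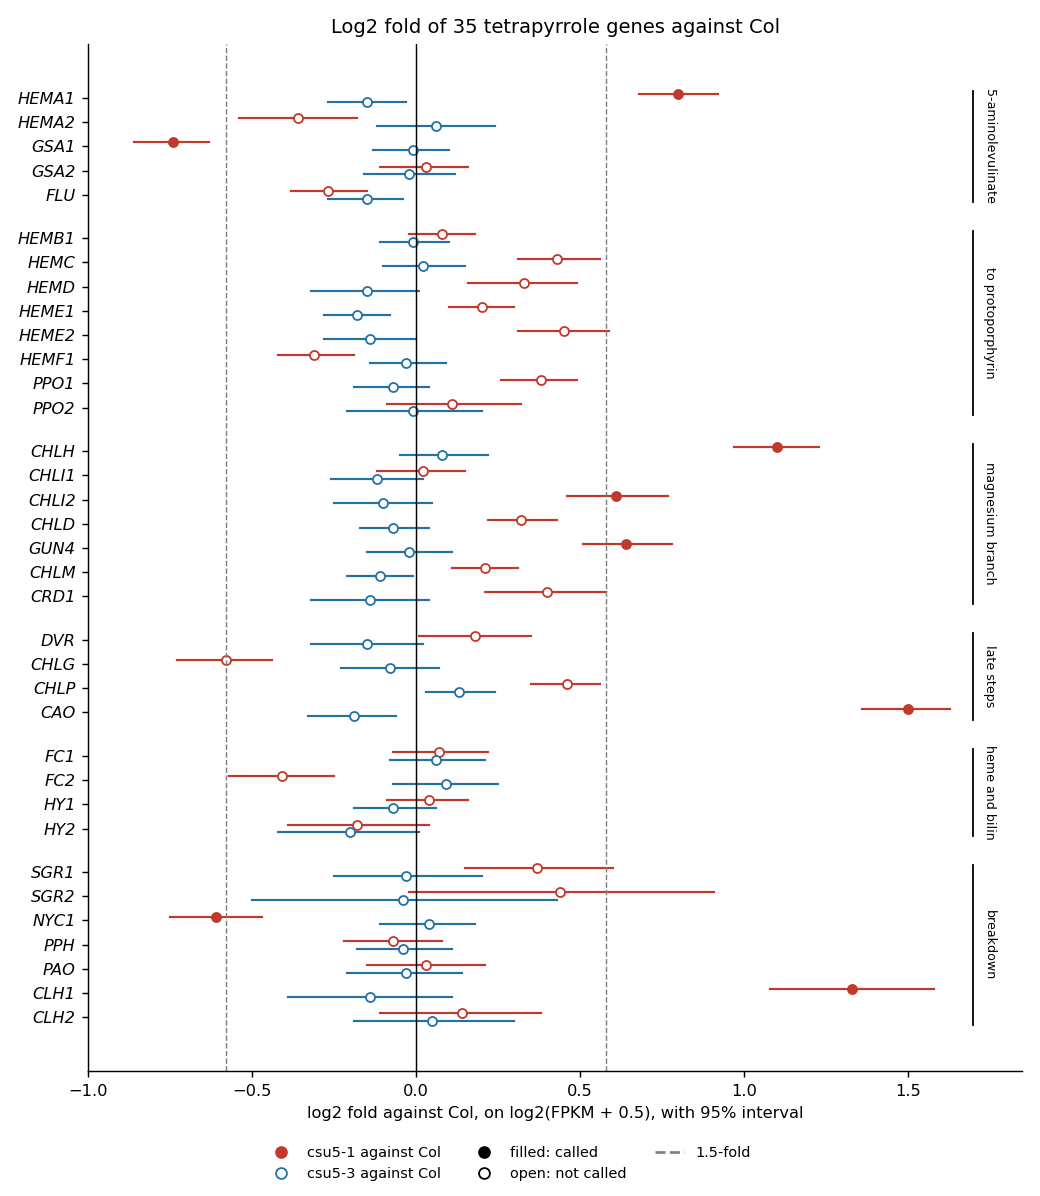
Log2 fold (horizontal axis, on log2(FPKM + 0.5)) with its 95% interval for each of the 35 genes, in pathway order from top to bottom, for csu5-1 (red) and csu5-3 (blue) against Col. Filled points passed both thresholds and dashed lines mark 1.5-fold: 8 filled red points reach from −0.74 (GSA1) to 1.50 (CAO), and the blue points lie between −0.20 and 0.13.

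The DNA just before the start of the called genes is shown because they are the genes that moved in csu5-1. The windows hold the 250 bases before the annotated start in RefSeq's TAIR10.1 assembly, with TAIR10.1 coordinates, while the authors aligned to TAIR10. All 35 genes had a window. The motifs searched, on both strands, were CACGTG (the G-box), CACATG (a PIF-binding E-box), CCAATC (linked to GLK factors), AAAATATCT (the evening element), AAAAATCT (a CCA1 binding site), CACGCGC (bound by FHY3 and FAR1) and GATAAG (the I-box). Capitals mark every match, and no matches overlap in the 5 windows printed. HEMA1, CHLH and GSA1 had no match in this window and are not printed.

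CAO, chr1:16851272-16851521, strand -: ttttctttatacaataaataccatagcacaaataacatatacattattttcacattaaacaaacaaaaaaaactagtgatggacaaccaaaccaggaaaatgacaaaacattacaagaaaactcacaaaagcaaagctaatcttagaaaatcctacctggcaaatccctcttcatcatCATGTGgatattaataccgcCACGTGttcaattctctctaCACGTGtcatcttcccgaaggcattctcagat

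CHLI2, chr5:18627700-18627949, strand +: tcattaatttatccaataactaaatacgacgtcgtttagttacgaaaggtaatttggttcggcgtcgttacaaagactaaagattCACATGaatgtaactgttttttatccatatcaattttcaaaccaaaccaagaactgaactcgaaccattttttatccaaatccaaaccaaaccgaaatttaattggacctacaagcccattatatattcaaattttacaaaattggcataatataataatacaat

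GUN4, chr3:21949797-21950046, strand -: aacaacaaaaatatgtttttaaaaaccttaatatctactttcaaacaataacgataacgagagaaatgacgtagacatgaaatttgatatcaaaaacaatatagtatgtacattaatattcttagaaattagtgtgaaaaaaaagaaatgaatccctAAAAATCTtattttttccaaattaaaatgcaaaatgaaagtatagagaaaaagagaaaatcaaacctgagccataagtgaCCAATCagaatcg

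CLH1, chr1:6805093-6805342, strand -: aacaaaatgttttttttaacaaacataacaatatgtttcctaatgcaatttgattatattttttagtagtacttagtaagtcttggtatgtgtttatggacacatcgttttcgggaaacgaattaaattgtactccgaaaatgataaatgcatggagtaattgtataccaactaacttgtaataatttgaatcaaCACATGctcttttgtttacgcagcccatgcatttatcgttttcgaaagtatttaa

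NYC1, chr4:7687007-7687256, strand -: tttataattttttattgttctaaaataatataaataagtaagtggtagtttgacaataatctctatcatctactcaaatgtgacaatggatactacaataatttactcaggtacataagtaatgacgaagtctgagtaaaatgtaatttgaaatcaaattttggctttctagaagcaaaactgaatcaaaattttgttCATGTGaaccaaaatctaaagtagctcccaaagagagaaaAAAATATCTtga

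CAO holds a pair of G-boxes, at 52 to 47 and 32 to 27 bases before the start, and a CACATG match at 72 to 67 bases. CHLI2, CLH1 and NYC1 share the CACATG match, at 165, 55 and 52 bases before the start respectively, and NYC1 also holds the evening element, at 12 to 4 bases. GUN4 holds the CCA1 site and the CCAATC match. Over all 35 genes CACATG occurred in 6 windows (17.1%) against 11.2% of 26711 windows of protein-coding genes, and CACGTG in 6 (17.1%) against 6.58%. The evening element occurred in 1 of 35 (2.86%) against 2.4%, CCAATC in 2 (5.71%) against 10.2%, the CCA1 site in 5 (14.3%) against 6.74% and GATAAG in 2 (5.71%) against 12.2%. CACGCGC was in none of the 35 windows and in 1.08% of all. These are letter matches in short windows, with no measure of binding.

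The first committed steps make 5-aminolevulinate, and here the genes moved in opposite directions in csu5-1. HEMA1 (AT1G58290) encodes glutamyl-tRNA reductase, the regulated entry enzyme of green tissue. It stood at 164, 160.1 and 172 FPKM in Col, 270.1, 278 and 271 in csu5-1, and 153, 139 and 158 in csu5-3. All csu5-1 libraries lay above all others, and all csu5-3 libraries lay below all Col libraries by a small margin. HEMA1 rose in csu5-1 (log2 fold 0.80 ± 0.06, adjusted p = 1.9e-07 by limma), and its log2 fold in csu5-3 was −0.15 ± 0.06 (adjusted p = 0.14).

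GSA1 (AT5G63570), a glutamate-1-semialdehyde aminotransferase that completes 5-aminolevulinate, went the other way. Its levels were 81.8, 80.8 and 83.6 FPKM in Col, 46.0, 47.3 and 45.4 in csu5-1, and 86.6, 79.9 and 78.0 in csu5-3. The csu5-1 libraries were the lowest by a wide gap, and Col and csu5-3 overlapped. GSA1 fell with a log2 fold of −0.74 ± 0.05 (adjusted p = 2.4e-07).

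The sister copies of both enzymes did not pass. HEMA2 (AT1G09940), the reductase copy known from roots and non-green tissue, stood at 18.2, 19.4 and 17.4 FPKM in Col, 14.6, 13.8 and 11.99 in csu5-1, and 18.1, 20.6 and 18.8 in csu5-3. Its csu5-1 libraries were all below the rest (−0.36 ± 0.08, adjusted p = 0.003, under the fold threshold). GSA2 (AT3G48730) stood at 75.0, 75.1 and 68.5 FPKM in Col, 72.4, 69.6 and 68.5 in csu5-1, and 78.6, 68.9 and 68.5 in csu5-3, with all genotypes overlapping (0.03 ± 0.06, adjusted p = 0.77). GSA1 was thus the more abundant aminotransferase transcript in Col and GSA2 in csu5-1. FLU (AT3G14110), a membrane protein that restrains glutamyl-tRNA reductase in darkness, stood at 74.6 to 77.0 FPKM in Col, 56.4 to 63.3 in csu5-1 and 66.7 to 69.6 in csu5-3, with log2 folds of −0.27 ± 0.05 (adjusted p = 0.0011) and −0.15 ± 0.05 (adjusted p = 0.11). FLU overlaps AT3G14100 by 45 bases on the other strand, and no source used here says whether counting used strand.

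From 5-aminolevulinate to protoporphyrin the shifts in csu5-1 stayed under the fold threshold. By limma 0 of 8 genes were called against Col, where 16.2% of all tested genes were called. At an unadjusted p below 0.05 there were 5 higher and 1 lower, together 75%, where 55.9% of all tested genes had such a p. The log2 folds ran from −0.31 to 0.45 with a median of 0.26. Most of these enzymes lean to the same side. HEMC (AT5G08280), which links 4 pyrroles into a chain, had a mean of 152 ± 5.82 FPKM (SD) in Col and 195 ± 8.31 in csu5-1 (0.43 ± 0.06). HEMD (AT2G26540), which closes the ring, had 0.33 ± 0.08, and PPO1 (AT4G01690), the plastid protoporphyrinogen oxidase, had 0.38 ± 0.05. HEME1 (AT3G14930) and HEME2 (AT2G40490), both uroporphyrinogen decarboxylases, had 0.20 ± 0.05 and 0.45 ± 0.06.

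HEMF1 (AT1G03475), the coproporphyrinogen oxidase that acts between the decarboxylases and PPO1, was the exception. It stood at 129, 126 and 114 FPKM in Col, 93.8, 91.3 and 96.8 in csu5-1, and 122, 119 and 121 in csu5-3. The csu5-1 libraries were all below the rest, with a log2 fold of −0.31 ± 0.05 against Col (adjusted p = 4.3e-04), under the fold threshold. HEMB1 (AT1G69740), which joins a pair of 5-aminolevulinates, stood at 103 to 107 FPKM in Col and 104 to 107 in csu5-1 (95% interval of the log2 fold −0.02 to 0.18). PPO2 (AT5G14220), the second oxidase, had an interval of −0.09 to 0.32.

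The magnesium branch gave the most even picture, as all 7 genes had a positive log2 fold in csu5-1. That of CHLI1 was only 0.02 ± 0.06, and its mean before scaling was lower in csu5-1 (179.1 FPKM) than in Col (187.4). Of the 7, 3 rose (42.9%, against 8.31% of all tested genes). At the same adjusted p with any fold 6 were higher (85.7%, against 17.5% of all tested genes). CHLH (AT5G13630), the large porphyrin-binding subunit of magnesium chelatase, stood at 199, 198 and 218 FPKM in Col, 433, 431 and 386 in csu5-1, and 222, 207 and 224 in csu5-3. The csu5-1 libraries lay far above the others, which overlapped. CHLH rose 2.14-fold (log2 fold 1.10 ± 0.06, adjusted p = 3.2e-08).

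GUN4 (AT3G59400), a porphyrin-binding protein that activates the chelatase, followed CHLH at a smaller size. Its levels were 143, 143 and 149 FPKM in Col, 221, 208 and 215 in csu5-1, and 151, 130.2 and 149 in csu5-3, so that csu5-1 was the highest and the other genotypes overlapped. GUN4 rose with a log2 fold of 0.64 ± 0.06 (adjusted p = 3.2e-06) and was not called without scaling (0.56). GUN4 shares 946 of its 1296 bases with GCN2 (AT3G59410) on the other strand, which stood at 8.88 to 13.2 FPKM, far below GUN4.

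The chelatase has a motor subunit with a pair of gene copies, and the minor copy was the 1 that moved. CHLI2 (AT5G45930) stood at 29.5, 26.3 and 26.3 FPKM in Col, 39.9, 37.6 and 42.1 in csu5-1, and 26.9, 24.0 and 25.7 in csu5-3, with csu5-1 above all the rest. CHLI2 rose with 0.61 ± 0.07 (adjusted p = 1.4e-05), close to the threshold, and was not called without scaling (0.54) or without csu5-1 replicate 3 (0.57). The major copy CHLI1 (AT4G18480) stood at 195, 177 and 190.3 FPKM in Col, 179, 177 and 181 in csu5-1, and 178, 156 and 186 in csu5-3, all overlapping, with an interval for csu5-1 against Col of −0.12 to 0.15. CHLD (AT1G08520), the third subunit, had a log2 fold of 0.32 ± 0.05 (adjusted p = 1.5e-04), under the fold threshold.

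The next enzymes of the branch had log2 folds under the threshold too. CHLM (AT4G25080), which methylates magnesium protoporphyrin, had a mean of 275 ± 0.906 FPKM (SD) in Col and 300.2 ± 5.52 in csu5-1 (0.21 ± 0.05, adjusted p = 0.0022). CRD1 (AT3G56940), a subunit of the cyclase that forms the fifth ring, is among the most abundant transcripts of the set, at 588 to 674 FPKM in Col, 763 to 821 in csu5-1 and 505 to 623 in csu5-3. Its log2 fold was 0.40 ± 0.08 in csu5-1 (adjusted p = 0.0018).

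**Figure D2:**
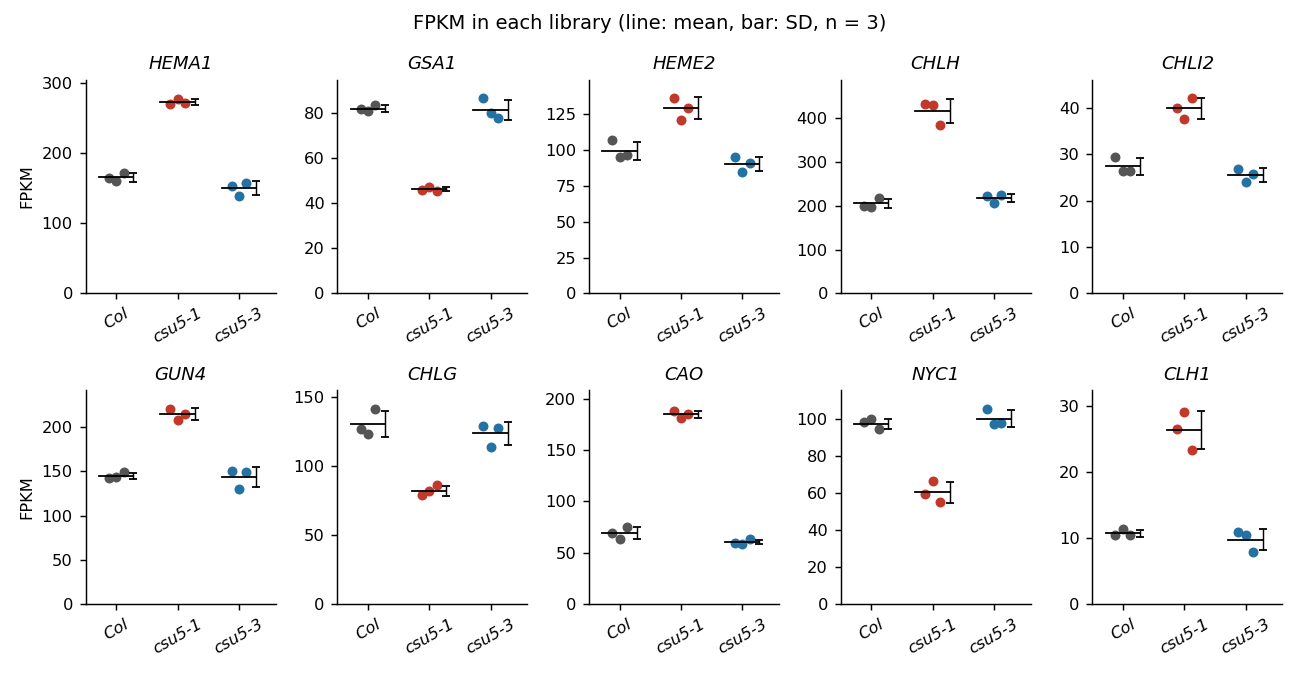
FPKM (vertical axis, from 0) of 10 genes in each of the 9 libraries, with the mean and SD of each genotype. In every panel the 3 csu5-1 points stand clear of the 3 Col points, above them for HEMA1, HEME2, CHLH, CHLI2, GUN4, CAO and CLH1 and below them for GSA1, CHLG and NYC1.

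At the end of the pathway the largest rise of the set stood beside a lower level of the enzyme that completes chlorophyll. CAO (AT1G44446), chlorophyllide a oxygenase, makes chlorophyll b, the pigment of the outer antenna. Its levels were 69.1, 63.0 and 75.5 FPKM in Col, 188, 182 and 186 in csu5-1, and 59.4, 58.9 and 63.1 in csu5-3. The csu5-1 libraries were far above every other library, and Col and csu5-3 overlapped narrowly. CAO rose 2.82-fold (log2 fold 1.50 ± 0.06, adjusted p = 3.0e-09), and in csu5-3 its log2 fold was −0.19 ± 0.06 (adjusted p = 0.095). It overlaps AT1G44414 on the other strand by 36 bases, and that gene stood at 0.45 to 2.54 FPKM.

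CHLG (AT3G51820), chlorophyll synthase, attaches the phytol tail. It stood at 127, 123 and 142 FPKM in Col, 78.7, 81.8 and 86.1 in csu5-1, and 129, 114 and 128 in csu5-3. Every csu5-1 library was below every other library. Its log2 fold of −0.58 ± 0.07 (adjusted p = 1.7e-05) lay at the fold threshold and just missed it, and it was called under 7 of the alternatives, with log2 folds of −0.66 to −0.59. CHLP (AT1G74470), geranylgeranyl reductase, supplies the phytol tail and is the most abundant transcript of the set. It stood at 784, 772 and 805 FPKM in Col, 1021, 1035 and 1014 in csu5-1, and 873, 848 and 868 in csu5-3, so that the 3 genotypes do not overlap. Its log2 folds were 0.46 ± 0.05 in csu5-1 (adjusted p = 7.2e-06, under the fold threshold) and 0.13 ± 0.05 in csu5-3 (adjusted p = 0.13). DVR (AT5G18660), the divinyl reductase, stood at 31.0 to 37.3 FPKM in Col and 34.7 to 37.0 in csu5-1 (0.18 ± 0.08, adjusted p = 0.079).

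In the heme and bilin branch 0 of 4 genes were called in csu5-1 by limma, where 16.2% of all tested genes were called. At an unadjusted p below 0.05, reached by 55.9% of all tested genes, there was 1, which was lower. That gene is FC2 (AT2G30390), the ferrochelatase of photosynthetic tissue. It stood at 41.7, 41.5 and 36.3 FPKM in Col, 29.4, 29.6 and 25.5 in csu5-1, and 44.0, 43.1 and 40.4 in csu5-3. The csu5-1 libraries were all lower, with a log2 fold of −0.41 ± 0.07 (adjusted p = 5.1e-04), under the fold threshold. FC1 (AT5G26030), the ferrochelatase also active in roots and under stress, stood at 16.9 to 18.7 FPKM in Col and 17.6 to 18.8 in csu5-1 (interval −0.07 to 0.22). HY1 (AT2G26670), the heme oxygenase that opens heme on the way to bilin, had an interval of −0.09 to 0.16, and HY2 (AT3G09150), which makes the phytochrome chromophore, one of −0.39 to 0.04.

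Of the 7 breakdown genes 1 rose and 1 fell in csu5-1, where 8.31% of all tested genes rose and 7.86% fell. NYC1 (AT4G13250), a chlorophyll b reductase, takes the first step from chlorophyll b back to chlorophyll a, the reverse of what CAO does. It stood at 98.0, 99.6 and 94.3 FPKM in Col, 59.4, 66.3 and 54.9 in csu5-1, and 105, 97.1 and 97.7 in csu5-3. The csu5-1 libraries were all below the rest. NYC1 fell (log2 fold −0.61 ± 0.07, adjusted p = 7.9e-06) and was not called without csu5-1 replicate 3 (−0.55).

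CLH1 (AT1G19670), a chlorophyllase known to be induced by jasmonate and coronatine, rose. Its levels were 10.5, 11.3 and 10.4 FPKM in Col, 26.5, 29.0 and 23.3 in csu5-1, and 10.9, 10.5 and 7.88 in csu5-3. The csu5-1 libraries stood clear of the other 6, with a 2.51-fold rise (1.33 ± 0.12, adjusted p = 1.5e-06). The other chlorophyllase, CLH2 (AT5G43860), stood at 3.36, 3.62 and 3.47 FPKM in Col, 3.63, 4.03 and 3.37 in csu5-1, and 3.50, 3.58 and 3.83 in csu5-3, all overlapping (interval −0.11 to 0.38). CLH2 shares 913 of its 1913 bases with AT5G43870 on the other strand, which was the more abundant at 9.3 to 14.2 FPKM, so the CLH2 values are uncertain.

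The members that act after NYC1 in the main senescence route did not pass. SGR1 (AT4G22920), the magnesium dechelatase of senescing leaves, stood at 9.74 to 12.2 FPKM in Col and 11.9 to 14.4 in csu5-1, ranges that overlap (0.37 ± 0.10, adjusted p = 0.01). Its adjusted p lay at the threshold, and its fold of 1.30 was under 1.5. SGR2 (AT4G11910), its homolog, was the scarcest member, at 0.71 to 1.25 FPKM in Col and 1.12 to 1.72 in csu5-1, or about 39 to 85 reads per library, and its interval of −0.02 to 0.91 leaves a change of more than 1.5-fold within reach. PPH (AT5G13800), which removes the phytol tail, had an interval of −0.22 to 0.08, and PAO (AT3G44880), which opens the ring, one of −0.15 to 0.21. Of the 6 senescence markers 3 were tested and 2 rose in csu5-1: SEN1 (1.04 ± 0.09) and SEN4 (1.01 ± 0.06). The third, SAG29, leaned the other way and was not called (−0.45 ± 0.26). WRKY53, under the filter, stood at 0.65 to 0.79 FPKM in Col and 0.27 to 0.57 in csu5-1. The 6 markers summed to 229 to 243 FPKM in Col, 433 to 469.8 in csu5-1 and 215 to 255 in csu5-3, most of it SEN1 and SEN4. The classic senescence marker SAG12 was listed at 0 in all 9 libraries. The part of this in the chlorophyllase result was not tested.

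Summed over the genes of a step, the magnesium branch held 1524 to 1661 FPKM in Col, 2054 to 2141 in csu5-1 and 1382 to 1581 in csu5-3. The 4 late genes summed to 991 to 1053, 1322 to 1334 and 1048 to 1095 FPKM in the same order. In both, the csu5-1 libraries lay above the rest. The heme and bilin genes (144 to 159 FPKM in Col, 134 to 137 in csu5-1) and the breakdown genes (169.8 to 177 in Col, 141 to 159 in csu5-1) summed to less in csu5-1 than in Col, without overlap. These sums are of unscaled FPKM. Divided by the scaling factors, an alternative chosen after seeing the data, the heme and bilin sums overlapped (141.7 to 155 in Col, 139 to 142 in csu5-1), and the breakdown sums did not (167 to 174 and 147 to 164). The sums are carried by their most abundant genes, CHLP and CRD1 among them. The breakdown sum is carried by NYC1, with a mean of 97.3 FPKM in Col and 60.2 in csu5-1. Of the 7 breakdown log2 folds in csu5-1, 5 were positive and 2 negative, with a median of 0.14.

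**Figure D3:**
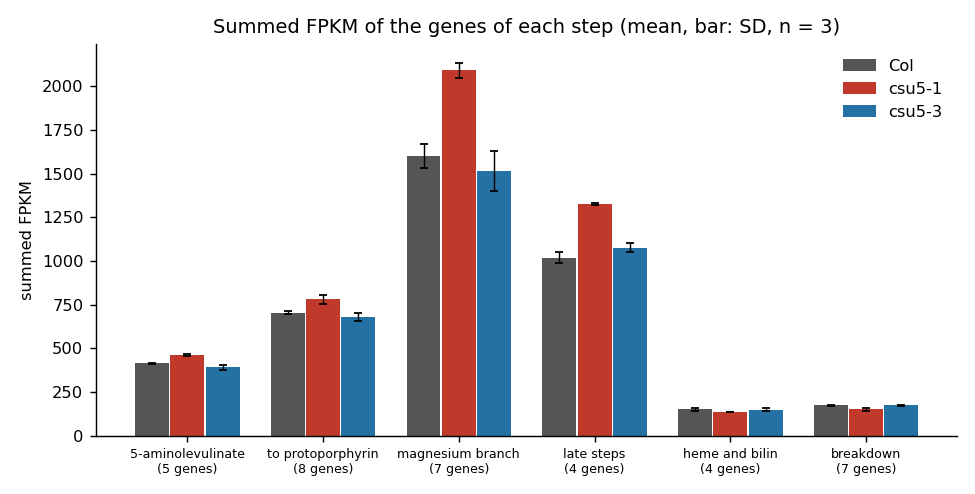
Summed FPKM (vertical axis, from 0) of the genes of each pathway step by genotype, as mean and SD of 3 libraries, in pathway order. The bars for csu5-1 exceed those for Col in the first 4 steps, with 2091 against 1602 FPKM in the magnesium branch, and are lower in the last 2. A bar is a sum and can differ from most of its genes. In the first step 3 of 5 log2 folds were negative, and in breakdown 5 of 7 were positive.

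Within the 8 pairs of related genes, the balance of copies differed between csu5-1 and Col without overlap in 6. The share of other gene pairs that separate in this way was not computed. In this comparison 55.9% of all tested genes had an unadjusted p below 0.05 by limma, so the count of 6 is not a trait shown for these pairs alone. HEMA2 made up 9.22% to 10.8% of the summed HEMA1 and HEMA2 level in Col and 4.24% to 5.14% in csu5-1. GSA2 went from 45.03% to 48.2% of its pair in Col to 59.6% to 61.1% in csu5-1. CHLI2 held 12.2% to 13.2% of the CHLI level in Col and 17.5% to 18.9% in csu5-1, and FC1 held 30.9% to 31.7% of the ferrochelatase level in Col and 37.4% to 40.8% in csu5-1. CLH2 held 24.2% to 25% in Col and 12.04% to 12.6% in csu5-1, and HEME2 held 49.0% to 52.0% and 53.5% to 56.3%. For PPO2 and SGR2 the ranges overlapped. In csu5-3 the shares of all 8 pairs overlapped those in Col. With 3 libraries against 3, the exact two-sided permutation test cannot go below p = 0.1, the value reached by each of the 6 pairs.

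**Figure D4:**
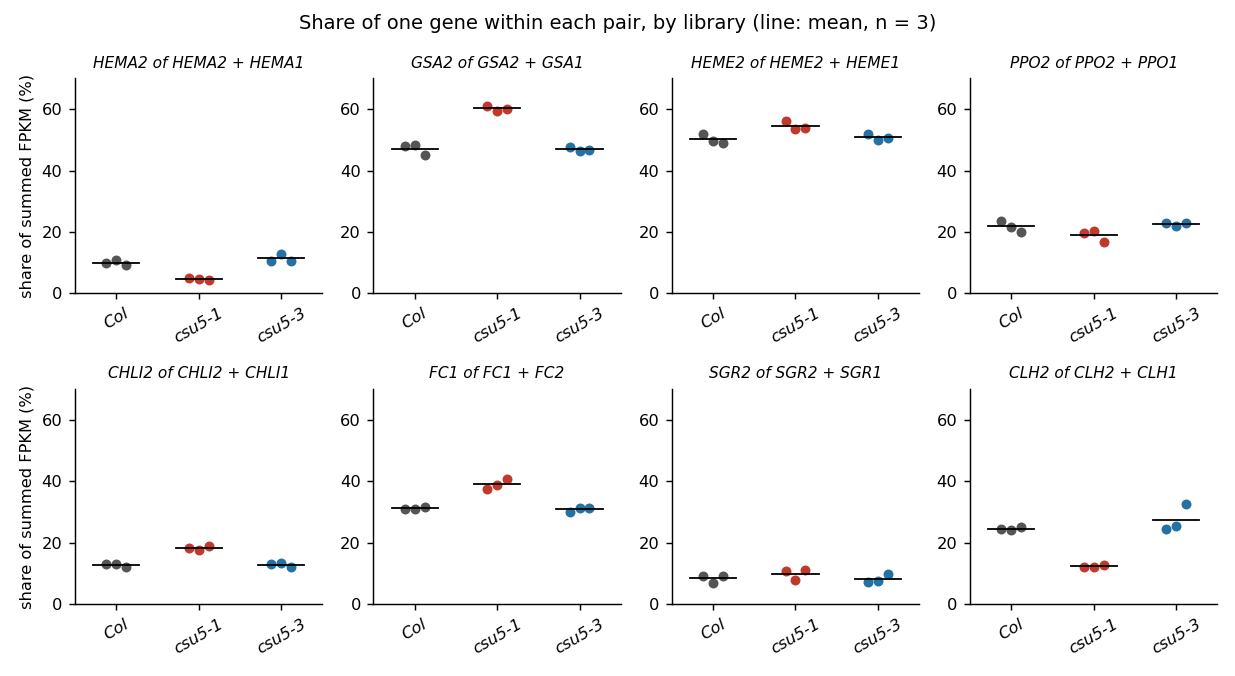
Share of one gene in the summed FPKM of its pair (vertical axis, %), 1 point per library with the mean as a line, for 8 pairs. The csu5-1 points separate from Col upward for GSA2, HEME2, CHLI2 and FC1 and downward for HEMA2 and CLH2, and the csu5-3 points overlap Col in every panel.

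Set directly against each other, the alleles differed in 9 of the 35 genes, or 25.7%, where 14.7% of all tested genes were called. In csu5-1, 7 were higher than in csu5-3 (20% of the set, against 8.12% of all tested genes) and 2 were lower (5.71%, against 6.59%). The median log2 fold was 0.32, where that of all tested genes was −0.01. At the same adjusted p with any fold 17 were higher (48.6%, against 16.1%) and 6 lower (17.1%, against 16.4%). The 7 were the 6 that rose against Col and HEME2, and the 2 were GSA1 and NYC1. This comparison shares its csu5-1 libraries with the first. CAO differed by a log2 fold of 1.69 ± 0.06 (adjusted p = 1.1e-09), CLH1 by 1.47 ± 0.12 (6.6e-07), CHLH by 1.02 ± 0.06 (6.7e-08) and HEMA1 by 0.95 ± 0.06 (4.9e-08).

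HEME2 stood at 107, 95.4 and 96.4 FPKM in Col, 137, 121 and 129 in csu5-1, and 94.96, 84.9 and 91.2 in csu5-3. The csu5-1 libraries were the highest, and all 3 csu5-3 libraries were below all of Col, the nearest by a small margin. HEME2 was called between the alleles at the edge of the fold threshold (0.59 ± 0.06, adjusted p = 1.1e-05), and not with 5 of the alternatives, among them leaving out csu5-1 replicate 1 (0.55) or csu5-3 replicate 2 (0.54). NYC1 differed by −0.65 ± 0.07 and was not called without csu5-1 replicate 3 (−0.58), which left 1 gene called lower. CRD1, at 0.54 ± 0.08, was called without csu5-3 replicate 1 (0.60) or replicate 3 (0.59).

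In csu5-3 against Col the smallest adjusted p among the 35 genes was that of HEME1. HEME1 stood at 98.7, 97.0 and 100.4 FPKM in Col, 106, 105 and 111 in csu5-1, and 87.6, 84.7 and 88.5 in csu5-3. The 3 genotypes do not overlap, and csu5-3 was the lowest, with a log2 fold of −0.18 ± 0.05 (adjusted p = 0.039). The members' log2 folds ran from −0.20 to 0.13 with a median of −0.04, where the median over all tested genes was 0.00. Their median absolute log2 fold was 0.07, where that over all tested genes was 0.11.

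A further 26 genes belong to the same pathways, and 22 of them were tested (HEMA3, HEMB2, HO3 and HO4 were under the filter). Of the 22, 4 rose in csu5-1 against Col and 0 fell by limma, 18.2% called, near the 16.2% of all tested genes. At an unadjusted p below 0.05, 14 were higher and 4 lower, together 81.8%, where 55.9% of all tested genes had such a p. PORA, a light-dependent protochlorophyllide oxidoreductase that sits between CRD1 and CHLG in the path, stood at 1.12 to 1.88 FPKM in Col and 107 to 137 in csu5-1 (63.9-fold on the FPKM + 0.5 scale). PORB, the enzyme of the same step that persists in light, stood at 389.5 to 405 FPKM in Col and 524 to 602 in csu5-1 (0.60 ± 0.06), and PORC had 0.32 ± 0.05 and was not called. CPOX2, the second gene copy of coproporphyrinogen oxidase, stood at 13.1 to 14.3 FPKM in Col and 22.9 to 23.5 in csu5-1, and rose with 0.83 ± 0.07 (adjusted p = 1.7e-06), while its major copy HEMF1 was lower. The fourth was CYP89A9, an enzyme that modifies chlorophyll breakdown products, named here after its value was seen (0.91 ± 0.13).

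In csu5-3 against Col 0 of the 22 were called by limma (0.248% of all tested genes). At an unadjusted p below 0.05, 4 were higher and 4 lower, together 36.4%, against 22% of all tested genes. PORA stood at 0.27 to 0.79 FPKM in csu5-3, below all of Col, at 0.501 times Col on the FPKM + 0.5 scale (adjusted p = 0.016), and was called with the replicate number as a block (adjusted p = 0.0087). Between the alleles 3 of the 22 were higher in csu5-1 (PORA, PORB and CPOX2), or 13.6%, against 8.12% of all tested genes. Another 3 were lower (13.6%, against 6.59% of all tested genes). These were HCAR (−0.59 ± 0.06), HEMN (−0.78 ± 0.17) and TSPO (−0.59 ± 0.14), named after their values were seen. HCAR completes the return from chlorophyll b to chlorophyll a that NYC1 begins. Without csu5-3 replicate 2 only 2 of the 22 were called between the alleles, and without csu5-1 replicate 2 there were 3.

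Of 18 known regulators of these pathways 4 rose (22.2%, against 8.31% of all tested genes) and 3 fell (16.7%, against 7.86%) in csu5-1. In csu5-3 0 were called by limma (0.248% of all tested genes). There, 2 were higher and 7 lower at an unadjusted p below 0.05, together 50%, against 22% of all tested genes. PIF5 (2.08 ± 0.08), CCA1 (2.35 ± 0.13) and GLK1 (−0.95 ± 0.06) had the smallest p-values. PIF5 belongs to the phytochrome-interacting factors that bind the CACATG and CACGTG letters shown above, CCA1 is a clock factor, and GLK1 is an activator of chlorophyll genes. No test linked these regulators to the members.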

How the data were processed

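Each library has a headerless list of gene identifiers and values, with no unit named. Per the series text and the submitters' processing notes, the authors used Trimmomatic on the reads, HISAT2 2.05 for alignment against TAIR10, and HTSeq for counting. The deposited values were read as FPKM from the values: sums per library were 691388 to 718744, and at depths of 37.3 to 43.1 M reads, 75.1% to 81% of 300 to 328 low values of short genes were whole reads to within 0.1, while other depths gave a median of 16.4% to 17.4%. No source used here says how the authors made FPKM from counts.

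Libraries of 1 genotype differed beyond counting error (mean chi-square per gene 8.03 to 12.91). Libraries were scaled by a mean of log ratios trimmed by 0.3 at each end (factors 0.961 to 1.03). limma 3.58.1 in R 4.3.3 was fitted with a mean-variance trend to log2(FPKM + 0.5), with 1 mean per genotype and 3 comparisons. It was also run on simulated data with a shared depth and a fixed spread, which does not measure its error on these libraries. Gene names, exon lengths, overlaps and windows came from RefSeq TAIR10.1 (31912 of 32678 identifiers matched), with Python 3.11.15. Of the 35 genes 17 overlap another gene. Alternatives were the pseudocount, filter, scaling, fitted groups, replicate block and leaving out each library. Any of the 35 could be named. Full values were reserved for the called gene of largest fold in each step and related pairs with a called gene, and were added for other called genes and a few near the threshold after their values were seen. Of other pathway genes and regulators, the 3 called with the smallest p in csu5-1 and the POR genes were named. The members and lists were chosen with earlier results of these data known.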

Additional observations from a re-analysis of the deposited data

How the results depend on the processing

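Of the 35 genes, 5 to 6 were higher and 2 to 3 lower in csu5-1 than in Col when 1 library was left out, and 0 to 0 in either direction in csu5-3. Between the alleles 6 to 8 were higher and 1 to 2 lower. The other pathway genes called numbered 3 to 4 in csu5-1 and 0 to 0 in csu5-3 against Col, and 2 to 6 between the alleles. No member changed sign where it was called. Without scaling the median of all tested genes lay at −0.08 in csu5-1, and CHLI2 and GUN4 lost their calls. HEME2 between the alleles was not called without a filter (0.57), without scaling (0.51) or under quantile normalization (0.58), and FC2 was called without scaling (−0.59). The causes were not tested. SGR2 had the fewest reads, 39 to 85 per library, and the widest intervals of the 35 genes.

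The correlation of same-numbered deviations was low, at 0.02 to 0.15, and exceeded 0.1 in 2 of 9 pairs. Yet 16 of 18 best matches across genotypes were to the same number. This hint of pairing comes from the data only, and the main fit holds no replicate block. Over all tested genes, the block gave 34 called higher and 43 lower in csu5-3 against Col, where the main fit gave 23 and 25. With the replicate block, 1 other pathway gene was called in csu5-3 against Col, PORA (adjusted p = 0.0087), against 0 without it, and no call of a member changed.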
